A study of Homo sapiens with 16 samples.

Results

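Among the regions enriched for N6-methyladenosine (m6A) in enzalutamide-resistant MDV-R prostate cancer cells, 698 lay outside exons and had no called peak in the parental C4-2B cells. They were chosen by their calls: at least 1 bp of a peak in 4 of 4 MDV-R lists, no peak in any of 4 C4-2B lists, and a midpoint in no exon of any annotated transcript on chromosomes 1 to 22 or X. The 698 were 4.19% of the 16640 merged regions outside exons, and the whole series held 36970 merged regions. With the same calls, 606 of 19709 regions in exons (3.07%) were MDV-R only. Of the 698 regions, 469 (67.19%, 95% Wilson interval 63.62 to 70.57) lay in introns of 395 host genes and 229 (32.81%) lay between genes. The presence and absence of peaks made the set, so the difference between the lines at these regions is a description and carries no test.

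The study compared m6A in a cell line that responds to enzalutamide with a resistant line derived from it. C4-2B is a castration-resistant human prostate cancer line derived from LNCaP. MDV-R was made from C4-2B by serial exposure to enzalutamide, a drug that blocks androgen signalling, and is kept in medium with the drug, so a change through selection and an effect of the drug in the medium cannot be told apart. Each line is a single derivation. Both are labelled wild type and were harvested on day 3, with 4 immunoprecipitated (IP) and 4 input samples per line, and nothing in the labels says whether replicates were separate cultures, so p-values measure the spread between these samples. The titles of the MDV-R samples carry another line's name (T24R2), so groups here follow the cell line field. The prostate genes KLK2, KLK3, HOXB13, TMPRSS2, FOLH1, SLC45A3, STEAP2 and FOXA1 each held a region called in 4 of 4 MDV-R lists, while 8 of 10 genes of urothelial or bladder carcinoma cells held none in any list and the other 2, VIM and UPK3A, were called in both lines.

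m6A is laid on nascent RNA in the nucleus by a complex around METTL3 and METTL14, which prefers short motifs with the core GGAC. Most of it is found in mature exons, near stop codons and in long internal exons. Marks in introns can be recovered from total RNA that still holds unspliced transcripts, retained introns, unannotated exons or long non-coding RNA. In this assay (MeRIP-seq, with a library kit for total RNA), fragments bound by an m6A antibody are compared with the input, and a peak needs both the mark and enough RNA. At a region without a C4-2B peak, less m6A, less of the transcript, fewer expressing cells and a weaker library cannot be told apart.

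Values below were recovered from the statistics of each deposited peak. The IP fragments at a summit were scaled to the mean depth of the 8 IP libraries. The local background estimates how much input covered the surroundings of the summit, and 1 library unit of it is the genome-wide average of that list. Fold enrichment is the authors' ratio of IP to that background. The lists held 13191 peaks in C4-2B replicate 1, 23254 to 24746 in the other C4-2B lists and 23880 to 30645 in MDV-R, and relative IP depth ran from 0.893 to 1.16. Input depth over IP depth was inferred from even steps among low background values, and in C4-2B replicate 1 from the scale of its fragments. The fitted steps held 99.67 to 100% of those values in C4-2B but only 53.75 to 61.69% in MDV-R, where the estimate is less sure. By this estimate the ratio was 0.747 to 1.22 in C4-2B and 1.56 to 3.15 in MDV-R, so the local background would rest on deeper input in MDV-R. The part of this difference in the calls was not tested.

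Sequences reaching 50 nt to either side of the strongest MDV-R summit are shown for regions the results turn on, on the strand of the host gene, or on the plus strand between genes, from hg38. Capitals mark GGAC. The first set holds intronic summits in unique sequence, each with the motif. They lie in SLC22A3 (chr6:160445960-160446060, plus), LPAL2 (chr6:160481928-160482028, minus), LINC01687 (chr21:22041114-22041214, minus), ADGRD1 (chr12:131132599-131132699, plus) and SYTL1 (chr1:27342515-27342615, plus).
SLC22A3: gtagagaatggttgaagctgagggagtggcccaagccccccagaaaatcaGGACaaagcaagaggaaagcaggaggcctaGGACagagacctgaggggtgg
LPAL2: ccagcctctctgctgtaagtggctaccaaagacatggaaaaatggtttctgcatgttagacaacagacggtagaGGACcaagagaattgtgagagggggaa
LINC01687: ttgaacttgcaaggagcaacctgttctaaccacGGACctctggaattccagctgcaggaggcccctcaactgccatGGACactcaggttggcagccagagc
ADGRD1: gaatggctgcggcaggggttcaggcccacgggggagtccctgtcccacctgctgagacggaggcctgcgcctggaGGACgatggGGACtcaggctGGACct
SYTL1: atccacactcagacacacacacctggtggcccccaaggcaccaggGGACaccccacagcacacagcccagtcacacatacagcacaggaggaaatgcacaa

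A second set shows strong summits that were called as reproducibly but hold no GGAC on the shown strand: EIF3A (chr10:119038456-119038556, minus), MIR3667HG (chr22:49435982-49436082, minus) and the highest-ranked region between genes (chr5:28083737-28083837, plus). The EIF3A window holds 25.74% G and C, against 56.44% in the SLC22A3 window.
EIF3A: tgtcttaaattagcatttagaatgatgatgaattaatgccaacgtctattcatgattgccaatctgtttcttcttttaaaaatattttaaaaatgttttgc
MIR3667HG: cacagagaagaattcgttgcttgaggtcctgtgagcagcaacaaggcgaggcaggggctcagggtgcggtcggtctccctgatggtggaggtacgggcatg
Chromosome 5, between genes: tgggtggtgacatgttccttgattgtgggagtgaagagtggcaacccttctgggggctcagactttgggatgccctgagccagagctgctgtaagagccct

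GGAC was found more often at the summits of the intronic MDV-R-only regions than in windows beside them. Of the 429 intronic regions under genes of one strand, 36.95% ± 2.94 (SD over 4 lists, 34.97 to 41.26) had a GGAC in the gene's own orientation no more than 50 nt from the summit. Equal windows placed 300 nt to the side had one in 27.04% ± 1.19, and the opposite strand at the summit in 27.80% ± 0.52. The summit range lay above both control ranges, which overlapped each other (25.29 to 27.97 and 27.04 to 28.21). The share was 42.97% ± 1.57 at 1152 intronic regions called in all 8 lists and 44.76% ± 2.01 at 506 exonic MDV-R-only regions, where the windows 300 nt away held 27.12% and 30.31%. Intronic C4-2B-only regions (139) held GGAC at 30.39% ± 2.90 of summits, at 20.50% ± 1.86 of windows 300 nt away and at 33.99% ± 2.07 of summits on the opposite strand, so they too were above the windows beside them. The 4 lists describe the same regions, and no test was run. Between genes, where no strand is given, 59.50% ± 1.90 of summit windows held GGAC on either strand against 44.21% ± 2.64 at 300 nt. G and C made up 48.03% ± 0.14 of the summit windows of all 698 regions and 54.23% ± 0.09 of exonic MDV-R-only summits.

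**Figure D1:**
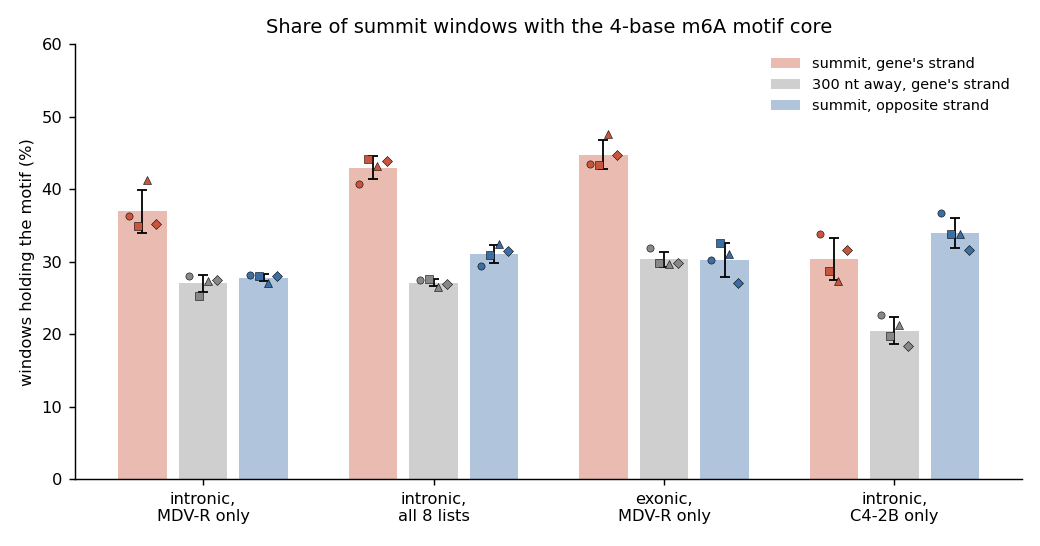
Share of windows (summit and 50 nt on either side) that hold GGAC, in percent, for intronic MDV-R-only regions (429), intronic regions called in all 8 lists (1152), exonic MDV-R-only regions (506) and intronic C4-2B-only regions (139). Bars are means over 4 lists (MDV-R lists, or C4-2B lists for the last set), error bars are SD, and points are lists; at intronic MDV-R-only summits every list lies at or above 34.97%, and every control window at or below 28.21%.

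Part of the regions lay in sequence with many copies. Each summit window (50 nt to either side) was cut into overlapping words of 31 nt, and each word was counted in the genome. Every word was unique in 254 of 469 intronic regions (54.16%) and in 97 of 229 regions between genes (42.36%). No word was unique in 90 intronic (19.19%) and 61 intergenic regions (26.64%), against 22.74% of intronic and 24.54% of intergenic regions called in all 8 lists and 3.30% of exonic MDV-R-only regions. The authors kept uniquely mapped reads, so fragments in such windows were placed by differences elsewhere in the read. The word in the window had a median of 6749 copies in EPM2A-DT and 8742 in 1 of the 3 DMGDH regions, while it was unique in SLC22A3, SYTL1, TMEM130 and ALDH1L2.

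The MDV-R-only regions outside exons were weak to moderate peaks. Their median summit held 15.42, 16.55, 15.46 and 14.22 scaled IP fragments in MDV-R replicates 1 to 4 (mean 15.41 ± 0.95). Exonic MDV-R-only regions held 21.86 ± 1.39 and non-exonic regions called in all 8 lists 29.82 ± 2.42 in the same lists. Fold enrichment was alike between the first pair, 8.20 ± 0.68 and 8.09 ± 0.86, and 12.92 ± 1.62 in the last. Within their lists the 698 regions stood at a median percentile of 36.77 by −log10 p. Only 29 reached the 75th and 172 stayed under the 25th. Nevertheless 585 (83.81%) had a −log10 q of at least 5 in all 4 lists, and the SD over the mean of the scaled fragments across lists had a median of 17.87%. The C4-2B-only regions outside exons, 251 in number, held 20.69 ± 3.04 scaled fragments in their own lists. They needed a call in C4-2B replicate 1, a list of only 13191 peaks, so the 2 sets were not chosen at equal strictness. The part of this in the difference was not tested.

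**Figure D2:**
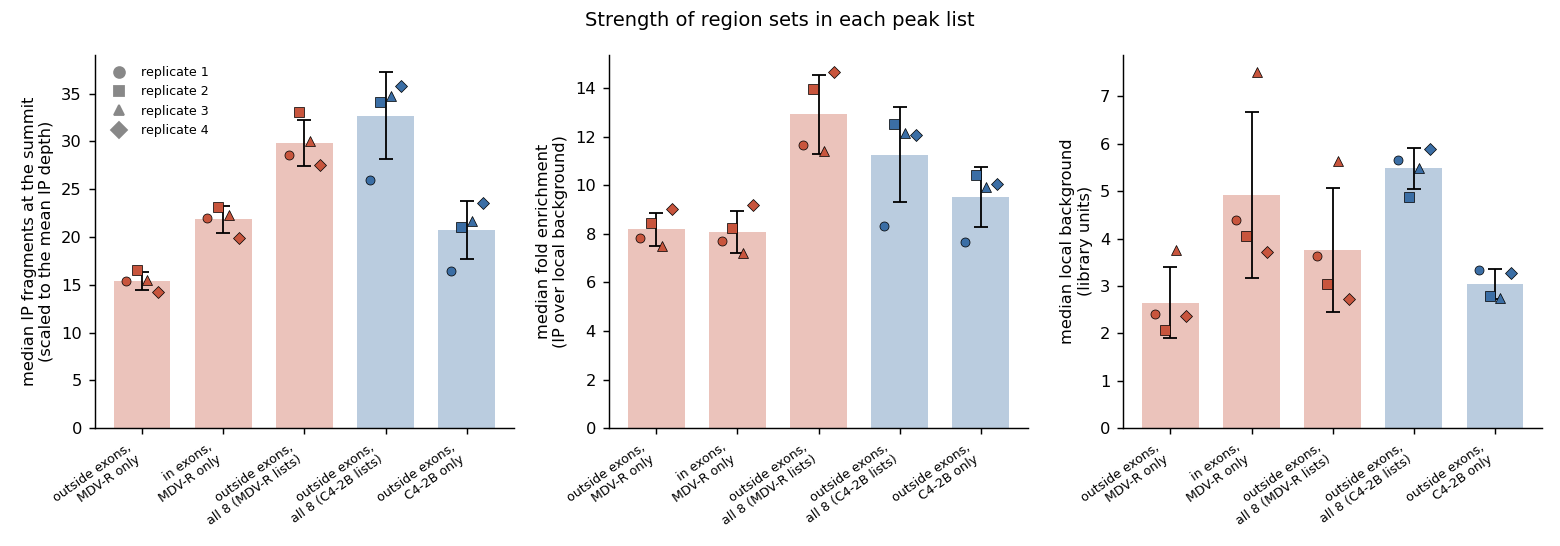
Median scaled IP fragments at the summit, fold enrichment and local background (library units) in each peak list for 5 sets of regions. Bars are means over the 4 lists of a line, error bars are SD and points are lists; regions outside exons called only in MDV-R have the lowest mean, 15.41, with lists from 14.22 to 16.55, and MDV-R replicate 3 has the highest background of its line in each set.

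The weakest peaks called in the C4-2B lists at a local background under 2 library units held 4.02 to 5.18 scaled fragments. At a higher background a call needs more fragments, so these levels are not a threshold for every region. All 698 regions had mean scaled fragments above these levels, but each was chosen by a call in 4 MDV-R lists. The weakest peaks of those lists at such a background held 3.44 to 4.41, so this follows largely from the rule. In 213 of the 698 (30.52%) the mean was over 4 times the highest of the C4-2B levels. The local background exceeded 2 library units in all 4 MDV-R lists at 261 regions (37.39%) and 10 units at 27 (3.87%). The background spans the wider surroundings, which can hold exons or a neighbouring gene, so input over the intron or gap itself is not shown. Just outside the rule lay 821 regions with 3 MDV-R lists and no C4-2B list (median 12.40 scaled fragments) and 418 with 4 MDV-R lists and 1 C4-2B list (median 15.75), against a median of 15.47 inside it. Of the 821, the missing list was MDV-R replicate 1 in 315, replicate 3 in 302, replicate 2 in 132 and replicate 4 in 72. The single C4-2B list was replicate 1, the smallest, in 5 of the 418. With every list limited to its 13191 strongest peaks, the size of that list, 206 regions met the rule, and 104 of them were among the 698.

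Summit positions repeated well between replicates. All 4 MDV-R summits lay inside the region in 684 of 698, 1 to 3 of them in 11 and none in 3. They fell within 100 nt of each other in 353 regions (50.57%) and within 200 nt in 545 (78.08%). The regions were short, with a median of 654 nt against 1108 nt for non-exonic regions called in all 8 lists.

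The 12 highest-ranked intronic regions, taken as 1 per host gene by mean percentile of −log10 p, were led by ZNF571-AS1, a long non-coding RNA antisense to a zinc finger gene. Its region (chr19:37547675-37551380) held 81.49, 79.44, 65.27 and 60.68 scaled fragments with a fold enrichment of 34.76 ± 9.75 (SD, n = 4). It was 3706 nt long, 41.45% of it exonic, and its 4 summits spread over 1476 nt. LINC01687, a long intergenic non-coding RNA, held 50.65, 59.58, 45.52 and 40.77 (chr21:22040395-22041616). LPAL2, a relative of the lipoprotein(a) gene annotated as non-coding, held 55.06, 66.20, 53.25 and 49.30. These 3 hosts are non-coding. EPM2A-DT, a divergent transcript of the laforin gene, held 27.53, 41.92, 27.48 and 29.39, of which replicate 2 stood above the rest.

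Protein-coding hosts in this group differed in how much input lay around the summit. In EIF3A, a subunit of translation initiation factor eIF3, the region chr10:119038320-119038699 in intron 19 of 21 held 152.0, 140.1, 128.8 and 128.9 scaled fragments, the highest mean of the group, but a fold enrichment of 6.98 ± 3.07 over a background of 70.02 ± 30.96 library units. SLC22A3, an organic cation transporter, held 113.4, 135.7, 104.8 and 109.0 (chr6:160444573-160446533, intron 9 of 10) over a background of 69.56 ± 29.47. In both genes the input around the summit was thus itself rich. TMEM130 (chr7:98850367-98851511), a membrane protein gene, held 30.83, 50.75, 37.79 and 39.82 at a background of only 3.43 ± 1.03, with a fold enrichment of 20.39 ± 5.93. ALDH1L2, a mitochondrial enzyme of folate metabolism, was the most even, at 59.46, 59.58, 58.40 and 61.63 in its last intron. SYTL1, a Rab27 effector of vesicle traffic, held 71.58, 72.82, 67.85 and 70.16 in its first intron. MAB21L4 and ENTREP2 had their strongest summit in an exon although the midpoint was intronic, and MAB21L4 held 24.23, 38.61, 36.07 and 21.81. LINC01608, the remaining host, held 31.29 to 48.54, in a summit window with no unique word and a median of 1079 copies.

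**Figure D3:**
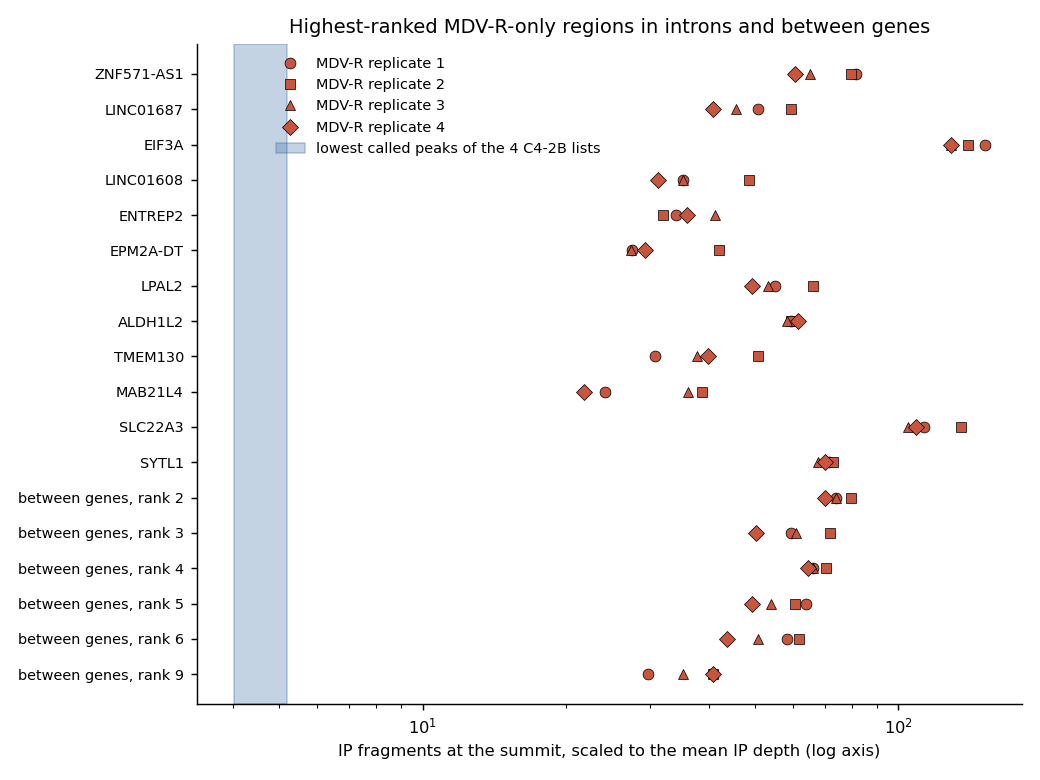
Scaled IP fragments at the summit (log axis) in the 4 MDV-R lists for the 12 highest-ranked intronic regions, 1 per host gene, and the 6 highest-ranked regions between genes. Symbols are replicates. The band, 4.02 to 5.18, spans the weakest called peaks of the 4 C4-2B lists with a local background under 2 library units. Every point lies to the right of the band, from 21.81 in MAB21L4 to 152.0 in EIF3A, though at a higher background a call needs more fragments. The regions were ranked by their MDV-R peaks, so their place beside the band follows largely from that choice.

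Between genes the strongest region was chr5:28082963-28084472, 129.6 kb from the nearest annotated gene, a processed pseudogene, and 352.2 kb from the nearest C4-2B peak. It held 73.78, 79.44, 73.86 and 70.16 scaled fragments at a fold enrichment of 31.54 ± 10.97. The next 3 lay together on chromosome 17 upstream of FLJ36000, a long non-coding RNA. The fifth, chr2:94956447-94957448, held 58.36, 61.78, 50.67 and 43.61 and lay 3.35 kb upstream of an unprocessed pseudogene. The sixth, chr21:15697127-15698965, held 29.73, 40.82, 35.21 and 40.77 and lay 1.47 kb upstream of RAD23BP3, also a pseudogene. No word was unique in the summit window of this sixth region (median of 722 copies). None of these 6 had a protein-coding gene as its neighbour.

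Host genes were long, and more often non-coding than for shared peaks. Of the 469 intronic regions 331 (70.58%, 66.30 to 74.52) had a protein-coding host and 130 (27.72%, 23.86 to 31.94) a long non-coding RNA, against 81.43% and 16.76% of 1271 intronic regions called in all 8 lists, and the intervals did not overlap. For C4-2B-only regions the shares were 74.70% and 21.08%, with intervals that overlap those of MDV-R. The 395 hosts had a median length of 91.23 kb, beside 63.62 kb for hosts of shared regions and 116.7 kb for hosts of C4-2B-only regions. In 408 regions the midpoint lay in an intron of the canonical transcript. The intron had a median length of 16.21 kb (11.66 kb for shared regions), and it was the first in 100 regions (24.51%) and the last in 84 (20.59%), against 30.51% and 20.79% of shared regions.

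An exon was touched by 173 of the 698 regions (24.79%), against 40.74% of non-exonic regions called in all 8 lists, and 41 had their strongest summit in one. The 525 regions free of exon bases were weaker, with 14.41 ± 0.90 scaled fragments against 23.14 ± 1.60 at the 173, and the ranges over lists, 13.27 to 15.45 and 20.86 to 24.27, did not overlap. Their fold enrichment was 8.20 ± 0.45 and 8.27 ± 1.18, within the spread of the lists, and the local background 2.05 ± 0.26 and 4.96 ± 1.65. Among exon-free intronic regions 170 of 278 (61.15%) lay nearer the 5′ splice site of the intron, and among those touching an exon 41 of 130 (31.54%). Together they made 211 of 408 (51.72%), against 51.01% of shared and 50.71% of C4-2B-only regions. Those comparison sets were not split by exon contact, so the split shares have no reference. Counting intervals here treat regions as independent, which regions of one gene are not.

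By the median, regions between genes lay farther from annotated genes than shared regions did, at a distance like that of C4-2B-only regions. The median distance to the nearest gene was 9.66 kb, against 1.85 kb for intergenic regions called in all 8 lists and 8.05 kb for C4-2B-only regions. Within 5 kb downstream of a gene lay 39 of 229 (17.03%), against 31.04% of shared regions, and within 5 kb upstream 50 (21.83%), against 39.59%. Over 100 kb from any gene lay 33 (14.41%, 10.45 to 19.55), against 8 of 538 shared regions (1.49%, 0.755 to 2.91). These intervals treat regions as independent, but some of the 33 were neighbours, such as chr7:9398952-9400033 and chr7:9402356-9402993. The share among C4-2B-only regions is not given here. The nearest gene was a long non-coding RNA for 94 (41.05%) and protein-coding for 57 (24.89%), against 34.20% and 45.54% of shared regions.

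Most of the regions had no C4-2B peak within 10 kb. A C4-2B peak lay within 1 kb of 75 of the 698 regions (10.74%) and within 10 kb of 284 (40.69%), with a median distance of 18.66 kb. For exonic MDV-R-only regions the median was 15.34 kb. Of the 469 intronic regions, 229 had a host gene with a shared region elsewhere (48.83%, 44.33 to 53.34), against 33.73% (26.98 to 41.22) for C4-2B-only regions.

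Some of the regions stood in groups, which are described here without a comparison set. Joined at gaps of at most 50 kb, the 698 regions formed 549 loci. Of these 456 held 1 region, 63 held 2 and 30 held 3 or more, with 116 regions in the last. In 24 of the 30, no region in the span was called in any C4-2B list, and 4 held a region called in all 8.

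The largest locus held 11 MDV-R-only regions in 35.26 kb of gene-free sequence upstream of FLJ36000 (chr17:22370196-22405458). In 9 of the 11 summit windows the 31-nt words had a median of 12 to 15 copies in the genome, and 3 had no unique word, while chr17:22370196-22371037 and chr17:22374104-22375843 were almost or wholly unique. The highest-ranked, chr17:22374104-22375843, held 59.46, 71.71, 60.98 and 50.25 scaled fragments, and its weakest, chr17:22381687-22381977, held 11.01, 9.93, 17.18 and 13.27. The locus was not silent in C4-2B. The region chr17:22391462-22392321 was called in all 8 lists, at 9.50, 13.05, 13.04 and 11.20 in C4-2B and 48.45, 73.92, 57.54 and 56.89 in MDV-R, without overlap. Of the 18 regions in the span 4 had a C4-2B call. Some neighbouring regions shared a single peak, such as chr17:22395209-22395522 and chr17:22395749-22396087, both at 47.35, 48.54, 38.65 and 41.72, so the count of 11 is not a count of separate peaks.

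Another locus spanned SLC22A3 and LPAL2, with 7 regions in 116.1 kb (chr6:160404832-160520927). In each gene 3 lay in introns and the last lay between genes. The SLC22A3 regions in introns 2 and 5 held 24.23 to 30.92 and 36.03 to 44.05 scaled fragments, well under the 104.8 to 135.7 in intron 9. An exonic SLC22A3 region in the span had peaks in 2 C4-2B lists, at 12.96 and 14.12, against 71.29 to 94.88 in the 4 MDV-R lists. An intronic LPAL2 region had a single C4-2B peak at 9.78 against 64.47 to 81.49. Levels in the C4-2B lists that made no call are unknown.

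The next locus lay in MIR3667HG, the host gene of a microRNA, with 7 regions in 33.90 kb (chr22:49432735-49466632) and no C4-2B call in the span. The strongest held 36.34, 27.58, 26.62 and 32.24 scaled fragments and the weakest 8.81, 14.34, 9.45 and 16.12. Backgrounds were low, between 1.54 and 3.50 library units on average over the 4 lists.

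**Figure D4:**
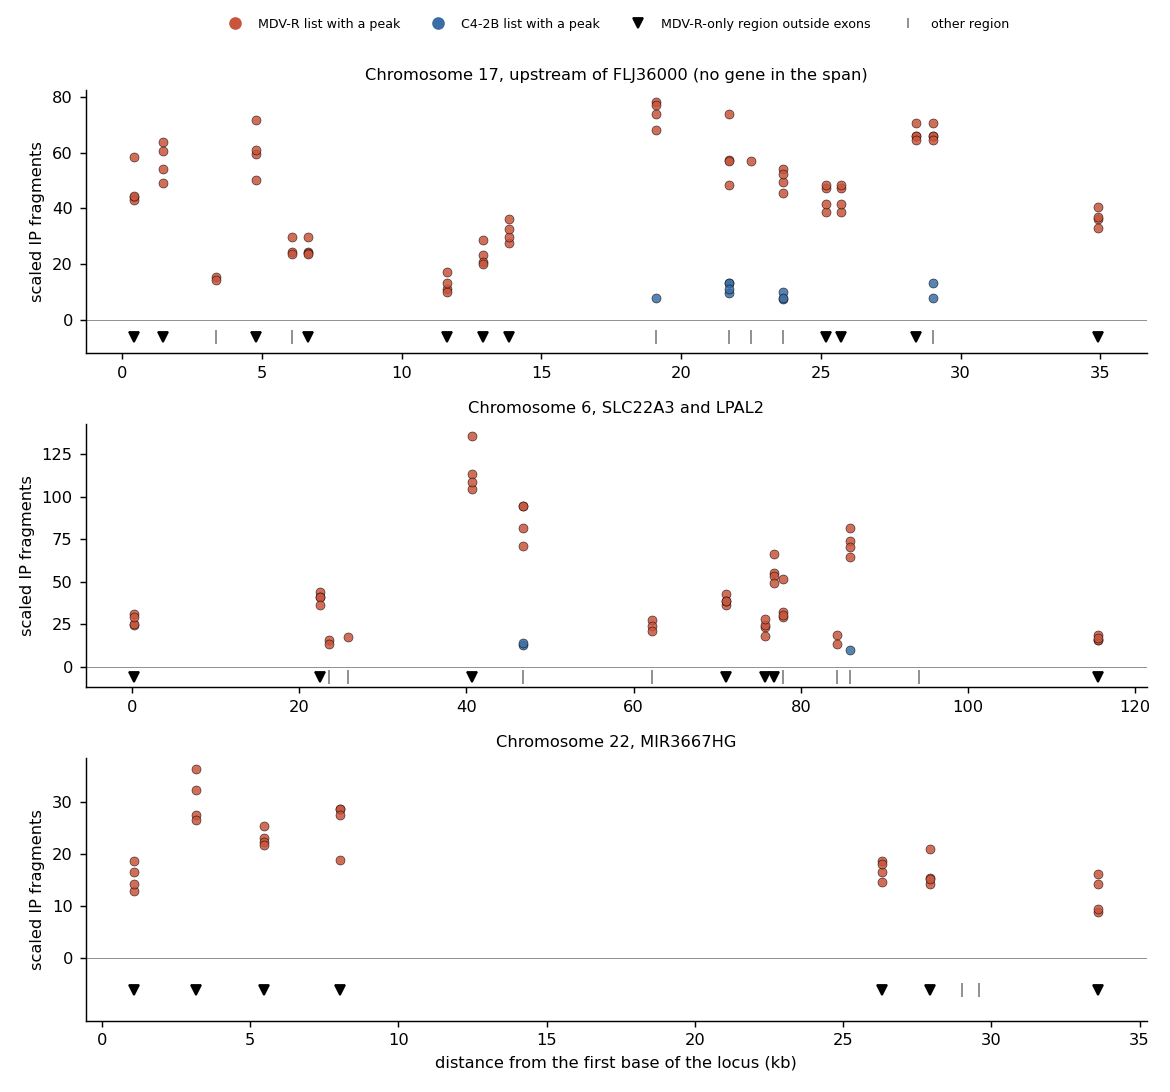
Scaled IP fragments at every merged region of the 3 loci with most MDV-R-only regions, against distance from the first base of the locus (kb). Each point is a list with a peak, MDV-R in red and C4-2B in blue, and marks under the axis show MDV-R-only regions outside exons (triangles) and other regions (ticks); C4-2B points appear at 4 regions on chromosome 17, 2 on chromosome 6 and none in MIR3667HG, and lie below the MDV-R points of the same region.

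In all, 16 host genes held 3 or more regions. After MIR3667HG came RPS6KA2, a ribosomal S6 kinase, and VLDLR-AS1, antisense to the VLDL receptor gene, with 5 each. In RPS6KA2 the regions ranged from 11.60 ± 1.92 to 45.36 ± 6.38 scaled fragments over introns 8 to 14, and in VLDLR-AS1 from 16.11 ± 2.15 to 35.55 ± 7.66. ADGRD1, an adhesion G protein-coupled receptor, held 4, between 15.48 ± 4.39 and 29.73 ± 5.52, all in introns 18 to 23 of 24, and SLCO5A1-AS1 held 4. Those with 3 were the protein-coding SLC22A3, TNN (tenascin-N), DMGDH (a mitochondrial dehydrogenase of choline breakdown), PLCB4 (a phospholipase C), TXNDC12 (a thioredoxin of the endoplasmic reticulum) and CFAP20DC, and the non-coding LPAL2, LINC01687, ADAM20P1, ENSG00000242029 and ENSG00000285280. In TNN the levels were 39.67 ± 7.93 to 56.60 ± 9.16, in summit windows whose words had a median of 57 to 283 copies. PLCB4 was the weakest of the coding hosts, at 8.75 ± 0.91 to 10.28 ± 1.61. The other 379 hosts held 1 (347) or 2 (32).

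Gene lists were read against all annotated genes: of 6768 genes that overlapped some region outside exons, 455 (6.72%) overlapped an MDV-R-only one. Of 12 transcripts followed up one by one in the study, a choice made on these samples, 9 overlapped a region outside exons and 4 of these held an MDV-R-only one. In THBS1, which encodes the matrix protein thrombospondin-1, the region chr15:39592984-39593761 held 46.25, 48.54, 31.78 and 32.24 scaled fragments. Its midpoint lay 25 nt from an exon, 76.22% of its bases were exonic and its summit was in an exon, so it is intronic by its midpoint alone. The region in GRHL2, an epithelial transcription factor, held 34.14, 45.23, 39.51 and 39.82 in the first intron. PARP10, a mono-ADP-ribosyltransferase, held 16.52, 23.17, 20.61 and 23.70, with the nearest C4-2B peak 0.084 kb away. FN1, which encodes fibronectin, held 25.33, 25.38, 26.62 and 19.91 with its summit in an exon.

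Among 30 genes of androgen signalling, 14 had some region outside exons and 1 held an MDV-R-only one, GATA2, a pioneer factor of that axis. It held 57.26, 63.99, 52.39 and 47.41 and had its summit in an exon, with the midpoint 6 nt outside one. None of 21 genes of the m6A machinery held one, although 9 of them had some region outside exons. Of 32 splicing factors, 8 had some region outside exons and 2 held one of these, HNRNPM with 93.60, 81.64, 74.72 and 75.85 over a background of 48.35 ± 23.16 and MBNL1 with 8.53 to 12.14. Among 36 chromatin regulators, 26 with some region outside exons, HDAC4 held one at 12.11 to 21.47. Adhesion and axon guidance genes held 3 regions in 2 of 42 genes (13 with some region outside exons): NCAM2, a neural adhesion molecule, at 24.74 ± 3.61 and 8.38 ± 0.84, and NRG3, a ligand of ERBB4, at 13.29 ± 2.30. MAPK10, the kinase JNK3, was the only one of 38 growth factor and kinase genes (12 with some region), at 10.04 ± 2.33, and SYT1, the calcium sensor of synaptic vesicles, the only one of 23 neuroendocrine genes (3 with some region), at 9.86 ± 2.02. No word was unique in the summit windows of NCAM2 (medians of 3689 and 356 copies), NRG3 (1323), MAPK10 (317) and SYT1 (9660), and the MBNL1 words had a median of 343 copies. None of 30 ubiquitin and DNA repair genes held one, with 13 having some region outside exons.

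Other regions in the host genes could be compared where both lines had peaks. Of 9172 regions called in all 8 lists, 335 lay in 201 host genes. They come from the same libraries as the calls that made the set, so they are not independent samples. The hosts entered through a peak called only in MDV-R, so the rule itself can favour higher calls in them. Hosts of C4-2B-only regions were not compared in this way. In a fit over all 9172, IP fragments were higher in MDV-R at 101 of the 335 (30.15%, against 14.2% of all regions tested) and lower at 49 (14.63%, against 19.9%), with a median log2 difference of 0.13 against −0.05 for all. Quantile scaling moved these counts to 152 (45.37%, against 28.41% of all) and 70 (20.9%, against 27.34%). Without C4-2B replicate 1 the lower calls came to 75 (22.39%, against 29.84%). The local background was higher at 28 (8.36%, against 1.78%) and lower at 37 (11.04%, against 13.4%), with medians of −0.30 and −0.48. Under quantile scaling these became 50 higher (14.93%, against 6.52% of all) and 24 lower (7.164%, against 7.119%). The median turned to 0.21 (0.0047 for all regions). The lower calls ran from 13 without MDV-R replicate 1 (3.881%, against 6.291%) to 92 without MDV-R replicate 3 (27.46%, against 33.96%). Fold enrichment was higher at 16 (4.78%, against 3.01%) and lower at 1 (0.299%, against 0.218%). Its medians were 0.45 and 0.44, both relative to the unequal input depths inferred above. The fold enrichment counts depended on the settings. Quantile scaling left 4 higher (1.194%, against 0.8613% of all) and 8 lower (2.388%, against 1.941%), and no region passed with its own spread alone. The higher calls ran from 1 without MDV-R replicate 4 (0.2985%, against 0.2399%) to 88 without MDV-R replicate 3 (26.27%, against 22.1%).

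By gene, 73 of the 201 hosts (36.32%) had IP fragments called higher alone and 29 (14.43%) lower alone, against 16.04% and 21.73% of 7823 genes. Another 6 had both (2.985%, against 0.6264%) and 93 neither (46.27%, against 61.6%). For local background, 23 hosts (11.44%) were called higher alone and 23 (11.44%) lower alone, against 2.045% and 16.18% of all genes. As above, the rule itself can favour higher calls in hosts. The spread was shared by all regions in the limma fit of IP fragments and fold enrichment, so single p-values below lean on it. Adjusted p-values are limma's with Benjamini-Hochberg adjustment over 9172 regions, and the means of a line are geometric.

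**Figure D5:**
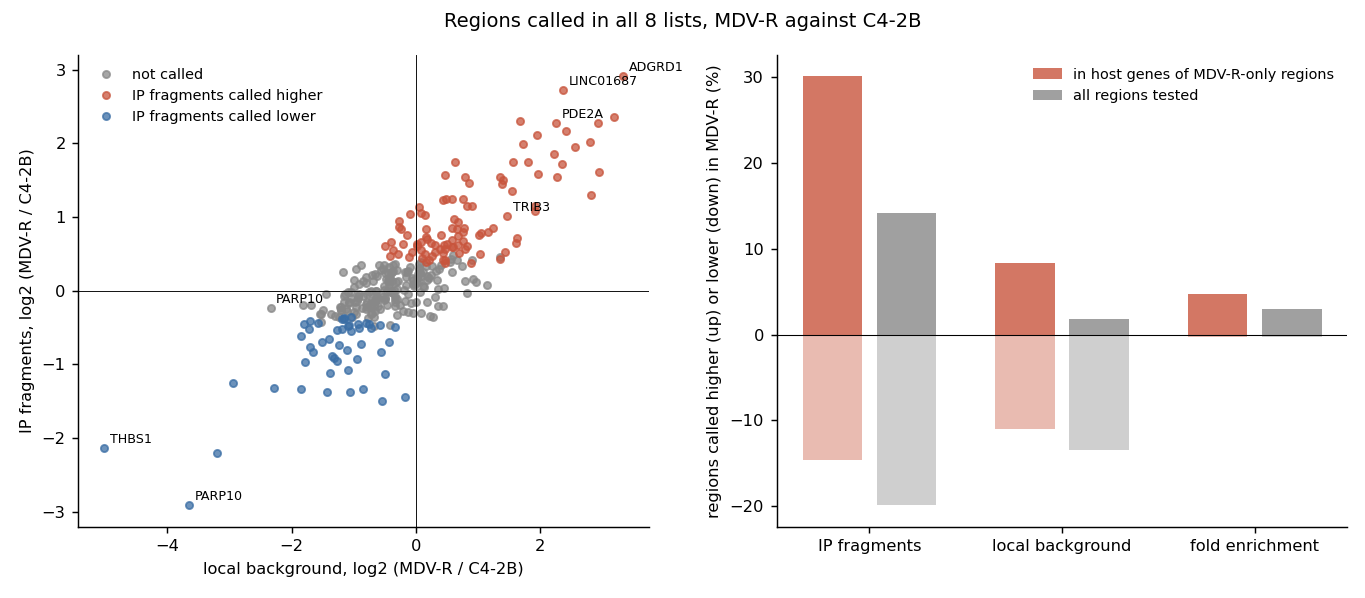
Left: log2 difference (MDV-R over C4-2B) in IP fragments against that in local background for the 335 regions called in all 8 lists in host genes, coloured by the call on IP fragments. Right: percent of regions called higher (above 0) or lower (below 0) in host genes and among all 9172 regions. IP fragments were higher at 30.15% against 14.2%, and fold enrichment at 4.78% against 3.01%. The hosts entered through a peak called only in MDV-R, which can favour higher calls.

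ADGRD1 rose most clearly. Its exonic region chr12:131139010-131140583, 2.23 kb from the nearest MDV-R-only region, held 10.37, 13.05, 14.12 and 19.04 scaled fragments in C4-2B and 110.1, 112.5, 99.63 and 95.76 in MDV-R (log2 difference 2.92 ± 0.18 SE, adjusted p = 5.29e-57). The local background rose with it, by 3.34 ± 0.53 on the log2 scale (adjusted p = 1.04e-04), while the fold enrichment, 9.44 and 19.51, did not pass (adjusted p = 0.0666). LINC01687 behaved alike at an intronic region 49.06 kb away, with 10.37, 20.08, 17.38 and 17.92 against 112.3, 130.2, 81.59 and 104.3. Both hosts thus had no overlap between the lines, in signal and in background. TRIB3, a stress-induced pseudokinase, held 77.75 to 116.2 in C4-2B and 173.5 to 244.9 in MDV-R at an exonic region, with a background higher by 1.48 ± 0.37 and no call on fold enrichment (log2 −0.25 ± 0.36). PDE2A, a phosphodiesterase, held 13.82 to 19.56 and 73.01 to 103.7 at an intronic region, and its fold enrichment passed (1.21 ± 0.36, adjusted p = 0.0346). TRIB3 and PDE2A were chosen after their values were seen.

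In THBS1, PARP10 and GRHL2 shared regions mostly went the other way. At the THBS1 exonic region chr15:39595216-39596432, 2.45 kb from the MDV-R-only region, IP fragments were 257.4, 310.3, 329.2 and 331.6 in C4-2B and 75.98, 72.82, 67.85 and 61.63 in MDV-R (log2 −2.14 ± 0.14, adjusted p = 1.00e-46). The background fell from 84.78 to 149.8 library units to between 1.63 and 5.63 (log2 −5.01 ± 0.41, adjusted p = 2.66e-09), and the fold enrichment rose from a mean of 7.75 to 32.38 (log2 2.06 ± 0.36, adjusted p = 1.17e-05). A PARP10 exonic region fell from 82.94 to 109.7 scaled fragments in C4-2B to 12.11 to 14.22 in MDV-R, with a background lower by 3.65 ± 0.48 in log2. In GRHL2, 2 of 3 such regions fell in IP fragments (log2 −1.25 ± 0.15 and −1.37 ± 0.18), and all 3 fell in background. The last GRHL2 region (log2 −0.32 ± 0.14, adjusted p = 0.0696) and an intronic PARP10 region (−0.23 ± 0.17, adjusted p = 0.305) did not pass in IP fragments, though the PARP10 one fell in background by 2.33 ± 0.50. These 3 genes thus held an MDV-R-only region beside shared regions of which 4 of 6 fell in IP fragments and 6 of 6 in background. FN1 had no region called in all 8 lists.

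The hosts of the highest-ranked intronic regions were mixed. In EIF3A, exonic regions held 160.6 and 144.4 scaled fragments (C4-2B and MDV-R means; adjusted p = 0.442) and 227.2 and 173.4 (log2 −0.39 ± 0.15, adjusted p = 0.0254). SYTL1 held 67.06 and 65.73 at an exonic region 8.12 kb from its MDV-R-only intronic one (adjusted p = 0.912). GATA2 held 229.7 and 185.2 at an exonic region (adjusted p = 0.0865) and 42.47 and 22.57 at an intronic one (log2 −0.91 ± 0.19, adjusted p = 1.41e-05). CFAP20DC held 25.66 and 31.10 (adjusted p = 0.28). Regions of ZNF571 and FBXO30, which lie within the spans of ZNF571-AS1 and EPM2A-DT, did not pass (log2 0.12 ± 0.17 and −0.14 ± 0.15). Among hosts with 3 or more regions, ADAM21 within the span of ADAM20P1 rose by 0.97 on the log2 scale (adjusted p = 2.91e-04). SLC22A3, LPAL2, MIR3667HG, TMEM130, MAB21L4 and ALDH1L2 held no region called in all 8 lists, so their transcripts cannot be compared at a shared peak.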

How the data were processed

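MeRIP-seq libraries of C4-2B and MDV-R cells (4 IP and 4 input each) were aligned by the authors to hg38 with STAR 2.7.0, reduced to unique, non-duplicate reads with SAMtools 1.10, and passed to MACS2 3.0.0a6, which called peaks of each IP against an input. The deposited peak lists give, per peak, a position, a score, the fold enrichment (IP over background, a ratio) and −log10 p and q values, as MACS2 wrote them. A deposited list of merged regions was used as given, and 894 of its 36970 regions met no peak of the 8 lists.

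Groups followed the cell line field. Regions and gene lists were chosen with earlier results of these data known. Exons, introns and genes came from GENCODE 44, a later release than the authors used. Fragments at each summit and the local background were solved from the fold enrichment and −log10 p. IP tags relative to sequencing depth had been planned, but absolute depth could not be recovered (each IP library held at least 681096 fragments), so fragments were scaled to the mean IP depth. The stated fragment extension (100 nt) and genome size (300 Mb) did not match the narrowest peaks, which leaves scaled values relative. Relative depth used the narrowest peak of each list, which implies 375100 fragments in MDV-R replicate 4 and 322360 in MDV-R replicate 2. The stated settings would imply 896490 and 941290, in the reverse order, so differences in scaled fragments rest on this choice. Shares have 95% Wilson intervals that cover counting error only.

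Log2 IP fragments, local background and fold enrichment at the 9172 regions called in all 8 lists were compared with limma 3.58.1 (R 4.3.3; lmFit and eBayes with a trend, 2-sided, Benjamini-Hochberg, threshold 0.05), tested on simulated data. Tables were handled with Python 3.11.15, numpy 2.4.6, pandas 2.3.3, scipy 1.17.1 and pysam 0.24.0, and drawn with matplotlib 3.10.9.

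Regions were ranked by their mean percentile of −log10 p in the 4 MDV-R lists. Named were regions in the study's 12 followed-up transcripts, the first 12 intronic regions (1 per host) and the first 6 between genes, hosts of 3 or more regions, regions in the gene lists, and shared regions of these hosts. Alternatives covered list size, thresholds, overlap, exon definition, motif, window, scaling, variance model, a replicate block and omission of each replicate. The fit with each region's own spread was added after seeing the data. Some recurring sequences and genes are not reported here.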

Additional observations from a re-analysis of the deposited data

Results flagged for a closer look

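At the intronic MDV-R-only regions, MDV-R replicate 3 stood apart in local background, with a list median of 3.75 library units against 2.42, 2.36 and 2.47 in replicates 1, 2 and 4, a gap to its neighbour of 0.9195 of the whole range, past the critical value of Dixon's test at the 95% level. Between genes the same list was high, at 2.33 against 1.69, 1.77 and 1.69 (0.8645). At the shared regions of the host genes, C4-2B replicate 1, the shortest list, was low in fold enrichment, with a median log2 of 2.85 against 3.53, 3.49 and 3.50 (0.9398), and high in local background, at 3.74 against 3.29, 3.35 and 3.30 (0.8591). Dixon's test picks out about 1 in 20 groups by chance, and 39 of the 698 regions (5.59%) had 1 list apart in scaled fragments.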

How the results depend on the processing

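The number of regions meeting the rule was 698. It came to 657 with a −log10 q of at least 5, 691 with 50% overlap, 685 by summit, 525 with no exon base and 839 with exons of protein-coding genes only, but to 206 with lists of equal size, and to 703 to 1013 without 1 replicate. The GGAC share (36.95%) was 21.04% within 25 nt (14.51% at 300 nt away), 88.69% for DRACH, a looser motif (83.92% at 300 nt away), and 35.51% to 37.61% without 1 list.

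At shared regions of the host genes, fold enrichment was higher at 16 (4 under quantile scaling, 4 with lists centred, 0 with each region's own spread, 1 to 88 without 1 replicate) and lower at 1 (8, 6, 0 and 0 to 2). Each replicate mattered: without C4-2B replicates 1 to 4 the higher calls were 6, 8, 8 and 2, and without MDV-R replicates 1 to 4 they were 3, 2, 88 and 1. At an unadjusted p under 0.05, 93 of 335 passed in the original limma fit, beside 2287 of all 9172 regions. IP fragments were higher at 101 (152, 146, 77 and 89 to 105) and lower at 49 (70, 68, 27 and 35 to 75, the last without C4-2B replicate 1). Local background was higher at 28 (50, 54, 6 and 19 to 26) and lower at 37 (24, 29, 7 and 13 to 92). Without C4-2B replicates 1, 3 and 4 the lower calls were 18, 24 and 23, and without MDV-R replicates 1 to 4 they were 13, 16, 92 and 16. Its median of −0.30 reversed to 0.205 under quantile scaling and 0.2028 with lists centred. The cause was not tested. Over all 9172 regions, fold enrichment split 276 higher and 20 lower, and 79 and 178 under quantile scaling. Without MDV-R replicate 3, 22.1% of all regions were higher in fold enrichment, against 26.27% of the 335. In that setting 33.96% of all were lower in local background, against 27.46% of the 335. Under quantile scaling 28.41% of all were higher in IP fragments and 27.34% lower, against 45.37% and 20.9%.

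Same-numbered samples did not deviate together (correlations from −0.075 to 0.040), which gave no sign that the numbers pair the samples but cannot exclude it. With the replicate block the calls were 22 higher and 2 lower for fold enrichment, 95 and 44 for IP fragments and 31 and 35 for background. In the same order these were 6.567% and 0.597%, 28.36% and 13.13%, and 9.254% and 10.45%. Over all regions the shares were 3.391% and 0.2726%, 12.7% and 17.34%, and 2.072% and 12.65%.

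C4-2B has no values where it has no peak, absolute depth is unknown, and the MDV-R input was inferred to be deeper relative to IP.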
